A study of Mus musculus with 30 samples.

Results

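The 2′-5′-oligoadenylate synthetase (OAS) family is represented here by 7 mouse genes: Oas1a, Oas1b, Oas1g, Oas2, Oas3, Oasl1 and Oasl2. Members were chosen by name, as the rows of the deposited count table whose Ensembl IDs carry these symbols in GENCODE M21, and they make up 7 of 32361 rows. GENCODE M21 names 12 Oas genes, of which 9 had a row: the 7 members, Oas1c with 4.0 to 98 counts per library, and Oas1d with 9 counts over all libraries. Oas1e, Oas1f and Oas1h were not analysed here. All 7 members passed the filter on low counts and were tested with the other genes, 15119 in all.

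OAS proteins bind double-stranded RNA, a sign of viral infection, and then join ATP molecules into short 2′-5′-linked oligoadenylates, which act as second messengers of antiviral defence. The genes are classical targets of type I interferon, which acts through its receptor, the kinases Jak1 and Tyk2 and the transcription factor complex ISGF3 that binds interferon-stimulated response elements (ISREs). In macrophages, lipopolysaccharide (LPS) reaches that pathway when Toll-like receptor 4 signals through the adaptors Ticam2 (TRAM) and Ticam1 (TRIF), which leads to interferon beta.

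The data are 30 RNA-seq libraries of primary macrophages grown from mouse bone marrow, in 10 groups of 3. Marrow from WT or Ticam2-/- (KO) mice, with C57BL/6J as the strain the labels name, was freed of red cells by lysis and differentiated in M-CSF-containing L929 supernatant. Cells were left untreated or received LPS at 10 ng/mL or lipoteichoic acid (LTA, a cell wall component of Gram-positive bacteria) at 100 ng/mL for 2 h or 6 h. The 10 groups were thus WT untreated, KO untreated, and WT and KO with each ligand at each time. A replicate stands for 1 animal according to the labels, and 3 WT and 3 KO animals were used. The sources used here give neither the animals' age nor the part of Ticam2 that the KO allele lacks.

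Totals ran from 10641070 to 13521660 counts in the 18 untreated and 6 h libraries and from 1334784 to 2658329 in the 12 libraries of 2 h. The 2 h libraries had no untreated group of their own, so every 2 h response also compares these library sets and cannot be told apart from their difference. Levels are given as CPM, counts relative to the library total after scaling by edgeR's trimmed mean of M-values (TMM), and sums of markers as CPM on library totals. Ticam2 stood at 9.28 to 28.2 CPM in the 9 WT libraries of the untreated and 6 h set and at 0.355 to 2.14 CPM in the 9 KO libraries. At 2 h the ranges were 9.10 to 13.5 CPM in 6 WT libraries and 0.708 to 5.01 CPM in 6 KO libraries. The 8 macrophage markers examined (among them Adgre1, Csf1r and Cd68) summed to between 19134 and 35951 CPM in every library. The 6 erythroid markers summed to 5599 to 7733 CPM in the untreated and 6 h libraries and to at most 0.456 CPM at 2 h, where Hba-a2, Hbb-bs, Hbb-bt and Alas2 were at 0. The 5 fibroblast and stromal markers (among them Col1a1 and Dcn) summed to 4.08 to 77.2 CPM in the untreated and 6 h libraries and to 61.0 to 124 CPM at 2 h. Hepatocyte markers summed to 19.8 to 28.7 CPM and to 40.6 to 85.7 CPM in the same sets. Neutrophil, B cell, plasmacytoid dendritic cell and T and NK cell markers summed to at most 25.4, 4.13, 2.01 and 0.913 CPM in any library. The mean TMM factor was 0.699 in WT LPS 6 h and 0.748 in WT LTA 6 h libraries, against 1.00 to 1.15 in the other groups.

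All 7 genes lie on chromosome 5 in 2 clusters (GRCm38, GENCODE M21). Oasl2 (ENSMUSG00000029561, chr5:114896936-114912234, plus strand) and Oasl1 (ENSMUSG00000041827, chr5:114923240-114937915, plus strand) are neighbours. The other cluster holds Oas2 (ENSMUSG00000032690, chr5:120730333-120749853, minus strand) and Oas3 (ENSMUSG00000032661, chr5:120753098-120777661, minus strand). It continues with Oas1b (ENSMUSG00000029605, chr5:120812635-120824163, plus strand), Oas1g (ENSMUSG00000066861, chr5:120876142-120887613, minus strand) and Oas1a (ENSMUSG00000052776, chr5:120896256-120907521, minus strand). Oas1b is annotated as a polymorphic pseudogene, and is known as the flavivirus resistance gene that is truncated in many laboratory strains.

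Start-site windows of RefSeq (GRCm38.p6, 250 bases before to 50 after the start) were matched by symbol for 5 of the 7 members. They were searched on both strands for an ISRE core (GAAA, any 2 bases, GAAA), a core of the gamma-activated site (GAS, TTCNNNGAA) and a core of NF-kappaB sites (GGGA, any 4 bases, CC). Because the members rose together in WT cells at 6 h, the 120 bases from 100 before the start to 20 after it are printed in the direction of transcription, with ISRE core matches in capitals. The coordinates are chr5:120907506-120907625 (minus strand) for Oas1a, chr5:120887594-120887713 (minus) for Oas1g, chr5:120777640-120777759 (minus) for Oas3, chr5:114923140-114923259 (plus) for Oasl1 and chr5:114896834-114896953 (plus) for Oasl2.
Oas1a: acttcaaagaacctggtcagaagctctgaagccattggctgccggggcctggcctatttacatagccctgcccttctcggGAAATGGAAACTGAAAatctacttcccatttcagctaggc
Oas1g: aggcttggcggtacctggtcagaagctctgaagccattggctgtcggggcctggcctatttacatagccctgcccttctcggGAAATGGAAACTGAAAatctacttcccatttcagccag
Oas3: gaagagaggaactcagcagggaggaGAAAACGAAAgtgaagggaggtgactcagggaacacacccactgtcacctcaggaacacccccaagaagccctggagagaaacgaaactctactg
Oasl1: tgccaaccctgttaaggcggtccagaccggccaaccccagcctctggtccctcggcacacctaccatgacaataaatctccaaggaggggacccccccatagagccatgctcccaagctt
Oasl2: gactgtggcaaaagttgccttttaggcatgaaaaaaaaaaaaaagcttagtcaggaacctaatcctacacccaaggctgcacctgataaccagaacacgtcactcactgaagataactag

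An ISRE core was found in 3 of these 5 windows, and in 3.44% of the 32851 RefSeq windows of the same length. In Oas1a it had 2 overlapping matches, at -20 to -11 and at -14 to -5, where -1 is the base before the start. In Oas1g the same overlapping pair stood at -18 to -9 and -12 to -3, within a run of 73 bases identical between Oas1a and Oas1g. Oas3 held 1 match, at -75 to -66. A GAS core occurred in 1 of the 5 windows (Oas1a, -98 to -90) and in 8.30% of all windows, and an NF-kappaB core in 1 (Oasl1, -13 to -4) and in 20.7% of all windows. These are letter matches in 1 window per gene, and the windows of Oasl1 and Oasl2 held no ISRE core in these letters.

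The near-identity of Oas1a and Oas1g extends to their transcripts. Of the 50-base words in Oas1a transcripts 57.6% also occurred in another gene's transcripts (1057 of them in Oas1g), and 45.7% of the words of Oas1g did, against 2.78% for Oas1b, 0.310% for Oas3, 0.138% for Oasl2 and none for Oas2 and Oasl1. Deposited values were not whole in 24 of 30 libraries for Oas1a, 26 for Oas1g and 23 for Oas3, and no source used here says how values that are not whole arose. With so many words in common, the division between Oas1a and Oas1g is uncertain. The ratio of Oas1g to Oas1a counts was 0.761 to 0.829 (median 0.795, n = 18) in the untreated and 6 h libraries and 0.899 to 0.995 (median 0.946, n = 12) at 2 h. Both ranges are free of overlap, so some results are also given for the summed counts of the Oas1 rows. The sum holds Oas1a, Oas1b and Oas1g, and also Oas1c and Oas1d, which are not members.

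In untreated WT macrophages all 7 members were detected. Per kilobase of exon length, Oas1a, which makes oligoadenylates, led with 59.3 CPM per kb, followed by Oas1g with 37.8 and Oasl2 with 25.2. Lower levels were found for Oas3 (9.66 CPM per kb), Oasl1 (9.48), Oas2 (7.97) and Oas1b (3.50). Without division by length, Oasl2 came first at 160 CPM, and the sources used here do not say how much of a transcript's length the libraries cover.

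The level of each member in each library is plotted on a log axis. In all 7 panels the WT LPS 6 h libraries are highest and the WT LTA 6 h libraries next, with no overlap between these groups or with any other. The share of all genes whose libraries separate in this way is not given, here or below.

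**Figure D1:**
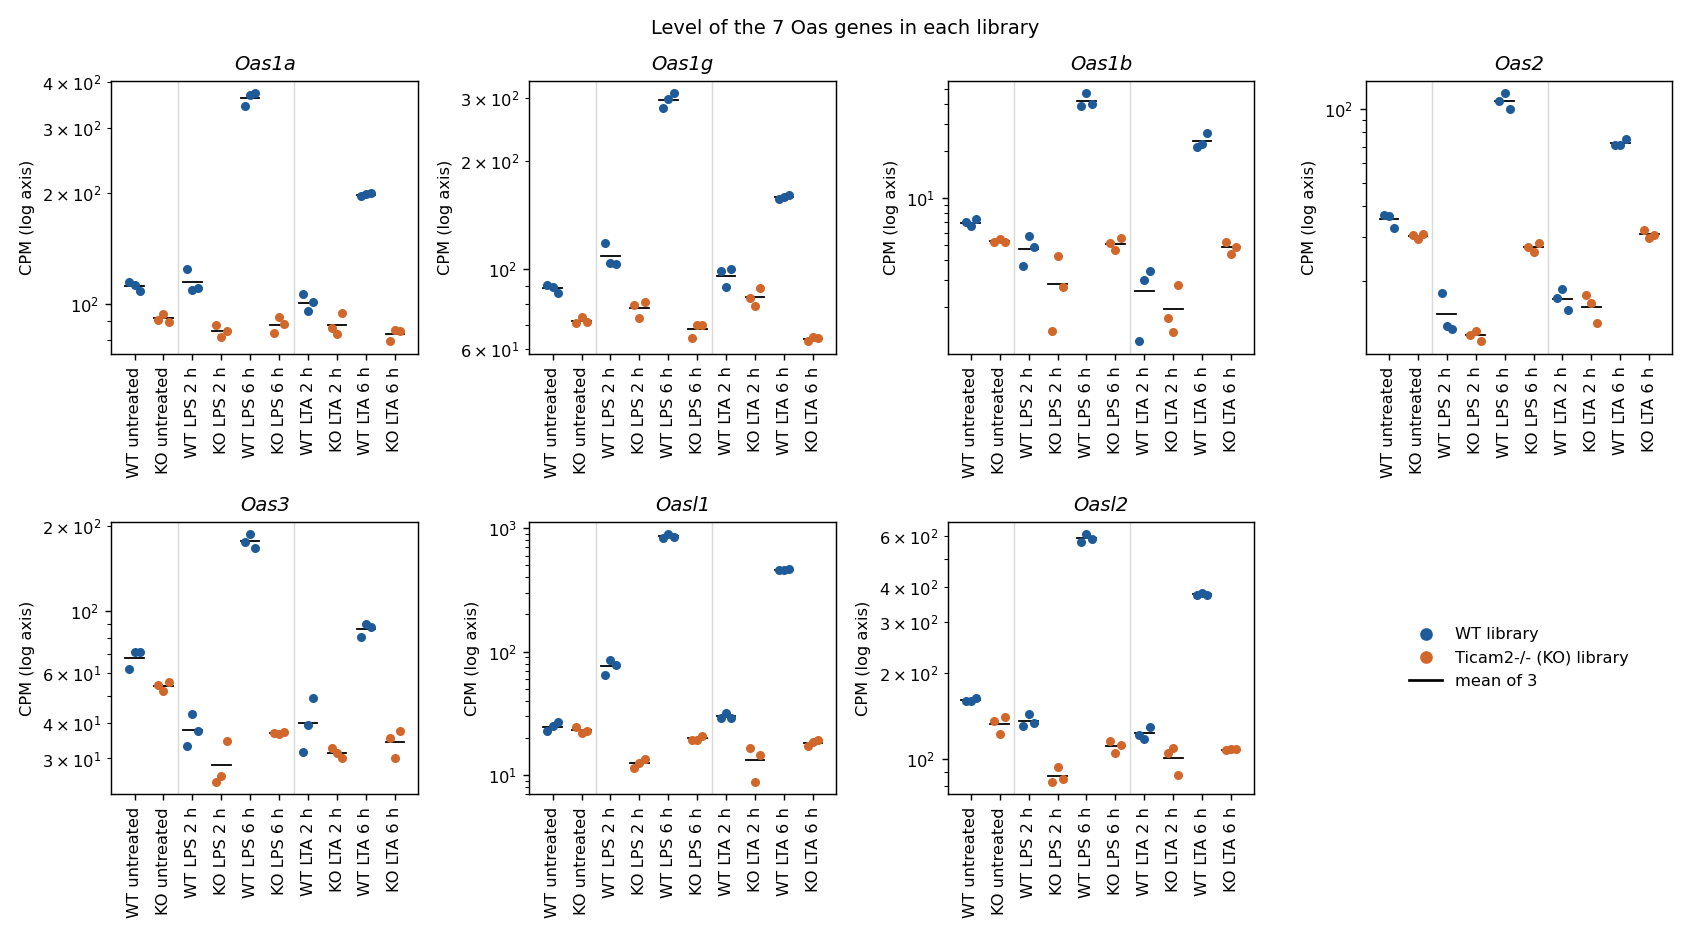
Level of each Oas gene (CPM, log axis) in each of the 30 libraries, with WT libraries in blue, Ticam2-/- libraries in orange and a bar at the mean of 3. Oasl1 runs from 24.7 CPM in untreated WT cells to 861 CPM in WT cells given LPS for 6 h, and stays at 19.8 CPM in KO cells given LPS for 6 h.

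The comparison of LPS for 6 h with untreated WT cells asks how the family responds to a ligand of Toll-like receptor 4. All 7 members rose, where 36.6% of all genes tested were called higher. The median log2 fold change over the members was 1.74 (range 1.37 to 5.13), beside 0.03 over all genes tested. Oasl1, a family member without synthetase activity that is known to limit translation of Irf7, rose most, and Oas3 rose least. Beside this, on library totals, the summed macrophage markers were at 29228 to 30700 CPM in untreated WT cells and at 19134 to 20620 CPM after LPS. Mean TMM factors were 1.13 in untreated WT and 0.699 in WT LPS 6 h libraries. The fall in macrophage markers therefore need not hold on the TMM scale of the members. Neutrophil markers were at 9.40 to 12.6 CPM untreated and then at 20.04 to 20.9 CPM. Fibroblast and stromal markers went from 5.00 to 5.73 CPM up to 39.7 to 43.2 CPM. Their part in the result was not tested.

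Oasl1 stood at 22.5, 24.8 and 26.8 CPM in the untreated WT libraries and at 834, 895 and 855 CPM after LPS. That is 34.9-fold, a log2 fold change of 5.13 ± 0.06 (SE; adjusted p = 1.2e-55 by edgeR's quasi-likelihood test), and rank 186 of 15119 from the largest rise. Oasl2, its neighbour, which has kept synthetase activity in mice, went from 160, 159 and 163 CPM to 573, 611 and 589 CPM. Its log2 fold change was 1.88 ± 0.05 (adjusted p = 6.9e-40), and the groups lay far apart for both genes.

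Among the Oas1 genes, Oas1b had the largest fold. It was scarce, at 6.99, 6.59 and 7.31 CPM without treatment, and reached 38.8, 46.8 and 40.0 CPM, a log2 fold change of 2.59 ± 0.09 (adjusted p = 1.4e-31). Oas1a moved from 114, 112 and 109 CPM to 344, 367 and 372 CPM (log2 1.69 ± 0.04, adjusted p = 2.6e-38). Oas1g moved from 90.1, 89.4 and 85.7 CPM to 280, 298 and 309 CPM (log2 1.74 ± 0.04, adjusted p = 1.2e-38). With the Oas1 rows summed, the level rose from 212 ± 5.6 to 710 ± 31 CPM (SD, n = 3), a log2 fold change of 1.75 ± 0.04 (adjusted p = 7.5e-40), a rise close in size to that of Oas1a and Oas1g taken alone.

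Of the larger synthetases, Oas2 rose nearly as much as Oas1a (log2 1.69 ± 0.04) and Oas3 rose less. Oas2, which makes longer oligoadenylates from a pair of synthetase units, stood at 37.0, 36.7 and 32.7 CPM untreated and at 107, 115 and 99.9 CPM after LPS (log2 1.59 ± 0.06, adjusted p = 9.5e-32). Oas3, the largest member, with 3 synthetase units, stood at 62.2, 71.1 and 71.5 CPM and then at 175, 187 and 166 CPM (log2 1.37 ± 0.06, adjusted p = 5.9e-28). No untreated library reached any LPS library in either gene.

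LTA, known as a ligand of Toll-like receptor 2, was compared with no treatment in the same way. All 7 members rose in WT cells at 6 h, where 35.4% of all genes were called higher and 35.9% lower, with a median log2 fold change of 1.03 (range 0.34 to 4.22) beside 0.01 over all genes. Beside this, macrophage markers summed on library totals to 23707 to 23882 CPM after LTA, and neutrophil markers to 21.9 to 25.4 CPM. Fibroblast and stromal markers summed to 75.1 to 77.2 CPM (untreated ranges as above), and the part of these markers was not tested. With mean TMM factors of 0.748 after LTA and 1.13 untreated, the macrophage difference need not hold on the TMM scale of the members. Oasl1 again led, at 461, 460 and 463 CPM (log2 4.22 ± 0.06, adjusted p = 1.2e-51, rank 257 of 15119). Oas1b reached 21.1, 22.1 and 26.2 CPM (log2 1.73 ± 0.10, adjusted p = 1.3e-21), and Oasl2 374, 380 and 375 CPM (log2 1.23 ± 0.05, adjusted p = 5.5e-31).

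Smaller rises after LTA were seen in the synthetases Oas2, Oas1g and Oas1a. Oas2 stood at 71.2, 70.8 and 75.4 CPM (log2 1.03 ± 0.06), Oas1g at 157, 159 and 161 CPM (0.85 ± 0.05) and Oas1a at 196, 198 and 200 CPM (0.82 ± 0.04), with adjusted p-values of at most 2.6e-22. Oas3 had the smallest difference, with 80.6, 89.7 and 87.9 CPM against 62.2, 71.1 and 71.5 CPM untreated (log2 0.34 ± 0.06, adjusted p = 4.2e-06). On library totals alone the sign for Oas3 turned, to -0.26, while the other 6 members stayed higher. The rises were then smaller: 0.22 for Oas1a, 0.25 for Oas1g, 0.43 for Oas2, 0.63 for Oasl2, 1.13 for Oas1b and 3.63 for Oasl1 after LTA. After LPS they were 0.67 for Oas3, 0.90 for Oas2, 0.99 for Oas1a, 1.05 for Oas1g, 1.18 for Oasl2, 1.89 for Oas1b and 4.43 for Oasl1 on library totals. With those totals the median over all genes shifted from 0.01 to -0.58 after LTA and from 0.03 to -0.66 after LPS. Calls over all genes then split into 2375 higher and 9414 lower after LTA (5348 and 5428 with TMM) and into 2450 and 9630 after LPS (5534 and 5452 with TMM).

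Within WT cells at 6 h, LPS at 10 ng/mL gave higher levels than LTA at 100 ng/mL for all 7 members, where 17.9% of all genes were called higher. The doses differ in mass and the ligands in kind, so the values stand side by side. Log2 differences ran from 0.57 ± 0.05 for Oas2 (adjusted p = 4.8e-13) to 1.03 ± 0.06 for Oas3 (adjusted p = 1.8e-21), with Oasl1 at 0.90 ± 0.04 and Oas1a at 0.87 ± 0.04. The lowest LPS library lay above the highest LTA library for each member.

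The makeup of the family changed along with its sum. Counts of the 7 genes together came to 496 ± 3.8 CPM (SD, n = 3) in untreated WT cells, 2434 ± 84 CPM after LPS and 1376 ± 14 CPM after LTA for 6 h. Oasl1 supplied 4.98% of them in untreated WT cells, 35.4% after LPS and 33.5% after LTA, while the share of Oas1a fell from 22.5% to 14.8% and 14.4%. Per kilobase, Oasl1 went from the fifth place of 7 to the first after LPS, at 330 CPM per kb, ahead of Oas1a at 192, Oas1g at 126 and Oasl2 at 92.7.

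**Figure D2:**
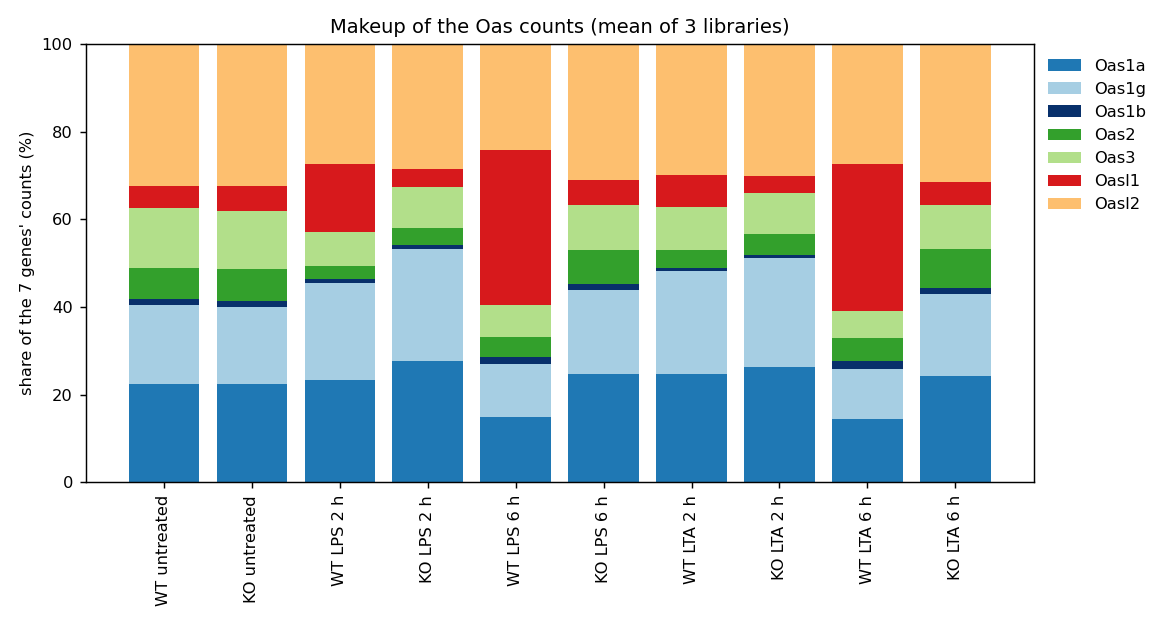
Share of the 7 genes' summed counts held by each gene (percent, mean of 3 libraries) in the 10 groups, as stacked bars that add up to 100. Oasl1 holds 35.4% in WT LPS 6 h and 33.5% in WT LTA 6 h, and 5.56% and 5.32% in the KO groups of the same treatments.

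KO cells showed no member higher at 6 h with either ligand, where 25.7% of all genes were called higher with each. After LPS, 3 of 7 were called lower (Oas3, Oasl1 and Oasl2), where 26.6% of all genes were, and after LTA 5 of 7 (these and Oas1a and Oas1g), where 26.5% were. Median log2 fold changes over the members were -0.15 and -0.17, beside 0.01 and 0.00 over all genes.

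Oas3 had the largest of these falls. It stood at 54.4, 51.9 and 55.8 CPM in untreated KO cells, at 37.0, 36.5 and 37.1 CPM after LPS (log2 -0.55 ± 0.07, adjusted p = 9.1e-10) and at 35.3, 30.2 and 37.5 CPM after LTA (log2 -0.66 ± 0.07, adjusted p = 1.5e-11). Oasl2 went from 135, 121 and 140 CPM to 115, 105 and 112 CPM after LPS (log2 -0.26 ± 0.05, adjusted p = 6.5e-06) and to 107, 108 and 108 CPM after LTA (log2 -0.30 ± 0.05, adjusted p = 5.9e-07). Treated and untreated KO libraries did not overlap in either gene.

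Oasl1, the gene with the largest rise in WT cells, stood in KO cells at 24.3, 21.9 and 22.9 CPM untreated and at 19.3, 19.4 and 20.7 CPM after LPS (log2 -0.22 ± 0.08, adjusted p = 0.014). Without KO untreated replicate 1 that call was lost (log2 -0.18, adjusted p = 0.072). After LTA it stood at 17.0, 18.4 and 19.3 CPM (log2 -0.33 ± 0.08, adjusted p = 0.00028). Oas1a stood at 90.7, 94.2 and 89.4 CPM untreated and at 79.2, 84.8 and 84.5 CPM after LTA (log2 -0.14 ± 0.05, adjusted p = 0.011), a call lost without KO untreated replicate 2 (-0.12, adjusted p = 0.066) or KO LTA 6 h replicate 1 (-0.11, adjusted p = 0.091). Oas1g was lower after LTA by -0.17 ± 0.05 (adjusted p = 0.0040). With the Oas1 rows summed, the value after LTA was -0.17 ± 0.04 (adjusted p = 0.0011 by edgeR's quasi-likelihood test). For Oas1b and Oas2 neither ligand gave a call in KO cells, with log2 values between -0.15 and 0.02. Oas2 after LPS (-0.15 ± 0.07, adjusted p = 0.052) was called lower without KO LPS 6 h replicate 3 (-0.19, adjusted p = 0.038).

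**Figure D3:**
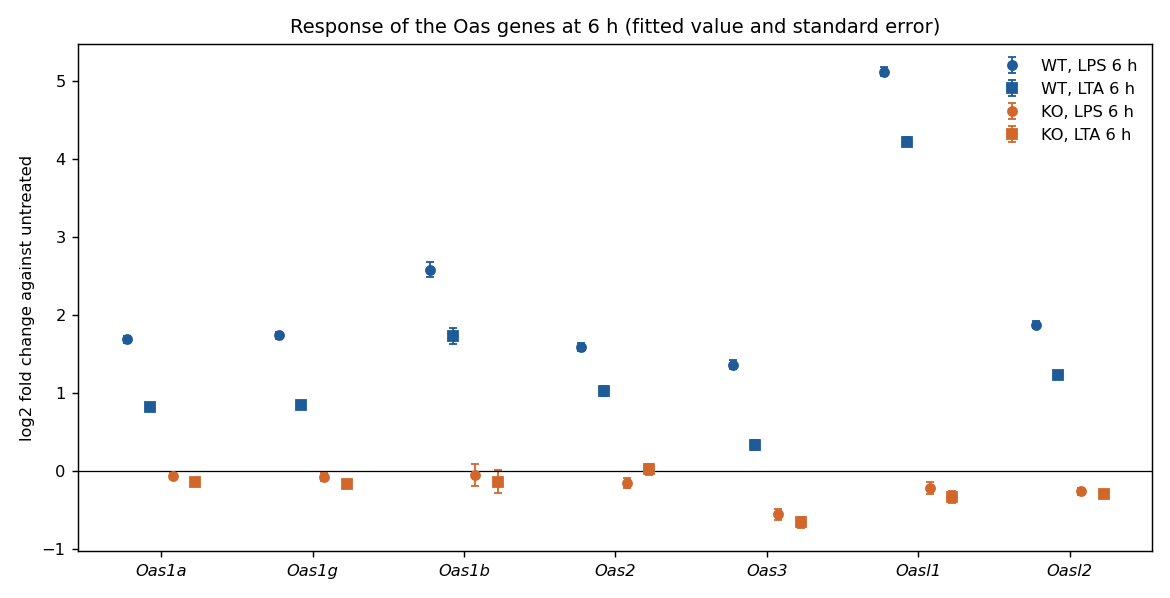
Log2 fold change against untreated cells of the same genotype at 6 h, fitted value with its standard error, for LPS (circles) and LTA (squares) in WT (blue) and KO (orange) cells. All WT points lie above 0, from 0.34 to 5.13, and the KO points lie between -0.66 and 0.02.

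The genotypes were then compared directly. In cells given LPS for 6 h all 7 members were lower in KO than in WT, where 30.6% of all genes were called lower, with a median log2 difference of -2.25 beside 0.01 over all genes. In cells given LTA for 6 h all 7 were lower as well, where 28.0% of genes were, with a median of -1.33 beside 0.01. On library totals, calls over all genes split into 9268 higher and 2191 lower after LPS (4951 and 4625 with TMM) and into 8906 and 1836 after LTA (4604 and 4237 with TMM), and all 7 members stayed lower, by -1.45 (Oas2) to -4.92 (Oasl1) after LPS and by -0.80 (Oas2) to -4.22 (Oasl1) after LTA. Fibroblast and stromal markers summed to 10.1 to 12.7 CPM in KO cells after LPS and to 8.83 to 10.9 CPM after LTA, below the WT ranges given above. Macrophage markers summed on library totals to 25775 to 27316 CPM and to 26585 to 27433 CPM, above the WT ranges on that scale. Neutrophil markers summed to at most 13.9 CPM, below the WT ranges. Mean TMM factors were 1.00 and 1.01 in KO after LPS and LTA, against 0.699 and 0.748 in WT. The order of macrophage markers between genotypes therefore need not hold on the TMM scale of the members. The part of these markers in the result was not tested. In these bulk samples, fewer responding cells and less RNA per cell cannot be told apart.

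Oasl1 differed most. After LPS the WT libraries stood at 834 to 895 CPM and the KO libraries at 19.3 to 20.7 CPM, a log2 difference of -5.44 ± 0.06 (adjusted p = 7.1e-56, 43.5-fold lower, rank 40 of 15119 from the largest fall). After LTA the difference was -4.66 ± 0.06 (adjusted p = 1.2e-51, 25.3-fold lower, rank 31). Oas1b followed, at 5.19, 4.62 and 5.55 CPM in KO after LPS against 38.8, 46.8 and 40.0 CPM in WT (log2 -3.03 ± 0.10), and with -2.25 ± 0.12 after LTA.

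The rest of the family was between 3.93-fold (Oas2) and 5.35-fold (Oasl2) lower in KO after LPS. Oasl2 stood at 115, 105 and 112 CPM in KO (log2 -2.42 ± 0.05) and Oas3 at 37.0, 36.5 and 37.1 CPM (-2.25 ± 0.06). Oas1g was at 64.5, 70.1 and 69.9 CPM (-2.12 ± 0.05), Oas1a at 83.3, 92.2 and 88.0 CPM (-2.04 ± 0.05) and Oas2 at 27.3, 26.0 and 28.5 CPM (-1.97 ± 0.06). After LTA these 5 differed by -1.23 ± 0.06 (Oas2) to -1.81 ± 0.05 (Oasl2). Adjusted p-values were at most 9.9e-24 for all 7 members with both ligands. WT and KO libraries did not overlap in any of them, though how common that is over all genes is not given.

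Already without treatment, 6 of 7 members were lower in KO cells, where 7.47% of all genes were called lower. The differences were small: Oas3 -0.33 ± 0.06 (adjusted p = 7.7e-05), Oas1g -0.30 ± 0.05 (3.3e-06), Oas1a -0.29 ± 0.05 (2.7e-06) and Oasl2 -0.28 ± 0.05 (7.6e-06). In each of these 4 genes every KO library lay below every WT library, as was also so for Oas2 and Oas1b. Oas2 differed by -0.23 ± 0.06 (adjusted p = 0.0089), a call lost without WT untreated replicate 1 (0.074), WT untreated replicate 2 (0.063) or KO untreated replicate 2 (0.056). Oas1b differed by -0.39 ± 0.13 (adjusted p = 0.042), which was lost without any single one of the 6 libraries (0.057 to 0.14). Oasl1, at 24.3, 21.9 and 22.9 CPM in KO and 22.5, 24.8 and 26.8 CPM in WT, was not called (-0.10 ± 0.07, adjusted p = 0.44), and its libraries overlapped.

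Whether the response itself differed between genotypes was tested as the KO response minus the WT response. After LPS for 6 h it was lower in KO for all 7 members, where 23.5% of all genes had a lower response, by -1.75 ± 0.09 (Oas2) to -5.34 ± 0.10 (Oasl1). After LTA for 6 h it was lower for all 7 too, where 20.1% of genes were, by -0.96 ± 0.07 (Oas1a) to -4.56 ± 0.10 (Oasl1). The gap between LPS and LTA was also smaller in KO for all 7 members at 6 h, where 13.5% of all genes had a lower difference, by -0.61 ± 0.07 (Oasl2) to -0.93 ± 0.10 (Oas3). Each of these contrasts shares libraries with the ones above.

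Between KO cells given LPS and KO cells given LTA for 6 h edgeR's quasi-likelihood test called 0 members, where 2.66% of all genes were called. DESeq2 likewise called 0, and at an unadjusted p under 0.05 there was 1, Oas2 (log2 -0.18 ± 0.07, adjusted p = 0.18). The largest value in size was that of Oas2, and the other 6 lay between 0.04 and 0.12.

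At 2 h the members went in different directions. Oasl1 stood at 65.2, 84.8 and 78.3 CPM in WT cells given LPS, above all untreated WT libraries (log2 1.63 ± 0.09, adjusted p = 8.6e-23). In all, 2 members were called higher (Oasl1 and Oas1g), where 19.5% of genes were, and 3 were lower (Oas2, Oas3 and Oasl2), where 25.5% were. Oas1g had 118, 104 and 103 CPM (log2 0.29 ± 0.06, adjusted p = 0.00015), and the summed Oas1 rows 0.15 ± 0.05 (adjusted p = 0.015). Depth and the erythroid, fibroblast and stromal, and hepatocyte markers differed between the library sets as given above, and their part in the 2 h responses was not tested.

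The synthetases Oas2 and Oas3 were lower in all 2 h groups than in untreated cells. Oas2 stood at 17.8, 13.1 and 12.7 CPM in WT after LPS (log2 -1.32 ± 0.13, adjusted p = 1.2e-12) and Oas3 at 33.2, 43.2 and 37.5 CPM (log2 -0.84 ± 0.11, adjusted p = 1.9e-09). Oasl2 stood at 130, 143 and 133 CPM (log2 -0.25 ± 0.06, adjusted p = 0.00057). After LTA in WT cells 4 members were lower (Oas1b, Oas2, Oas3 and Oasl2), where 23.9% of genes were. None was called higher, where 2879 of 15119 genes were. There Oasl1 had 29.1, 31.6 and 29.0 CPM (log2 0.28 ± 0.12, adjusted p = 0.061), which DESeq2 called (0.34, adjusted p = 0.026). That gene was also called without WT untreated replicate 3 (0.33, adjusted p = 0.033). Oas1a, at -0.15 ± 0.06 (adjusted p = 0.058), was called lower without WT LTA 2 h replicate 1 (-0.19, adjusted p = 0.043) or WT untreated replicate 3 (-0.18, adjusted p = 0.032).

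In KO cells at 2 h, 5 members were lower after LPS (Oas1b, Oas2, Oas3, Oasl1 and Oasl2), where 30.4% of genes were. The same 5 were lower after LTA, where 29.7% of genes were, and Oas1g was higher (log2 0.21 ± 0.07, adjusted p = 0.0062), where 26.3% of genes were. That rise was 0.02 (adjusted p = 0.76) with the Oas1 rows summed, and was not called without KO LTA 2 h replicate 3 (0.16, adjusted p = 0.091). For Oas2 the KO differences were -1.33 ± 0.14 (LPS) and -0.94 ± 0.13 (LTA), beside -1.32 and -1.08 in WT. For Oasl1 they were -0.87 ± 0.15 and -0.79 ± 0.14, beside 1.63 and 0.28 in WT. Oas1b had at most 5.69 CPM in any 2 h library, where 3 counts amount to 1.13 to 2.25 CPM, and its fall after LPS in KO cells (-0.76 ± 0.31, adjusted p = 0.032) was lost without KO LPS 2 h replicate 1 (0.18) or replicate 3 (0.11).

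Within the 2 h set, where the library sets do not differ, 4 members were lower in KO than in WT after LPS: Oas1a, Oas1g, Oasl1 and Oasl2. Of all genes 7.24% were called lower. Oasl1 stood at 11.3, 12.5 and 13.5 CPM in KO (log2 -2.61 ± 0.14, adjusted p = 4.6e-22, rank 222 of 15119), and Oasl2 at 82.8, 93.3 and 84.7 CPM (-0.62 ± 0.08, adjusted p = 1.2e-08). Oas1a (-0.44 ± 0.08, adjusted p = 1.6e-05) and Oas1g (-0.48 ± 0.08, adjusted p = 4.6e-06) were lower as well, without overlap. Oas3 just missed the threshold (-0.42 ± 0.16, adjusted p = 0.056) and passed it without KO LPS 2 h replicate 3 (-0.57, adjusted p = 0.019) or WT LPS 2 h replicate 1 (-0.49, adjusted p = 0.038).

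After LTA for 2 h, 2 members were lower in KO (Oasl1 and Oasl2), where 5.21% of genes were. Oasl1 stood at 16.6, 8.79 and 14.5 CPM in KO and 29.1, 31.6 and 29.0 CPM in WT (log2 -1.16 ± 0.17, adjusted p = 4.7e-07). Oasl2 stood at 105, 109 and 87.5 CPM in KO and 121, 118 and 129 CPM in WT (-0.28 ± 0.08, adjusted p = 0.010), a call lost without WT LTA 2 h replicate 3 (-0.23, adjusted p = 0.10) or KO LTA 2 h replicate 3 (-0.20, adjusted p = 0.12). Oas3 (-0.36 ± 0.15, adjusted p = 0.12) was called without WT LTA 2 h replicate 1 (-0.50, adjusted p = 0.030). A fit to the 2 h libraries alone called 5 members, adding Oas1a, Oas1g and Oas3. The summed Oas1 rows were also lower in KO (-0.22 ± 0.06, adjusted p = 0.012 by edgeR's quasi-likelihood test).

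The ligands were told apart at 2 h by 1 member. In WT cells Oasl1 was higher after LPS than after LTA (log2 1.36 ± 0.12, adjusted p = 8.2e-13), where 1.10% of genes were called higher. In KO cells edgeR's quasi-likelihood test and DESeq2 called 0 members, where 1.40% of genes were called, and 1 had an unadjusted p under 0.05 (Oasl2, log2 -0.20 ± 0.08, adjusted p = 0.36). The difference between genotypes in this gap was called for Oasl1 (-1.45 ± 0.24, adjusted p = 0.00024), where 0.119% of genes were called lower. Without KO LTA 2 h replicate 1 it was -1.23 (adjusted p = 0.053).

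Differences in the 2 h response between genotypes were called for Oasl1 and Oasl2 after LPS (-2.51 ± 0.16 and -0.34 ± 0.09), where 7.90% of genes had a lower response. After LTA it was Oasl1 (-1.06 ± 0.19, adjusted p = 1.5e-05), where 6.33% had. The KO to WT difference at 6 h exceeded that at 2 h for all 7 members. With LPS, where 23.5% of all genes had a lower value, it did so by -1.60 ± 0.09 (Oas1a) to -2.83 ± 0.21 (Oasl1). With LTA, where 20.5% had, it did so by -0.96 ± 0.17 (Oas3) to -3.50 ± 0.22 (Oasl1). Oas1b after LTA (-1.80 ± 0.58, adjusted p = 0.0096) lost its call without KO LTA 2 h replicate 3 (-1.50, adjusted p = 0.094). On library totals Oas1b was not called there either (-1.30, adjusted p = 0.059). The 6 h minus 2 h values also compare the library sets, so time and library set cannot be told apart.

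**Figure D4:**
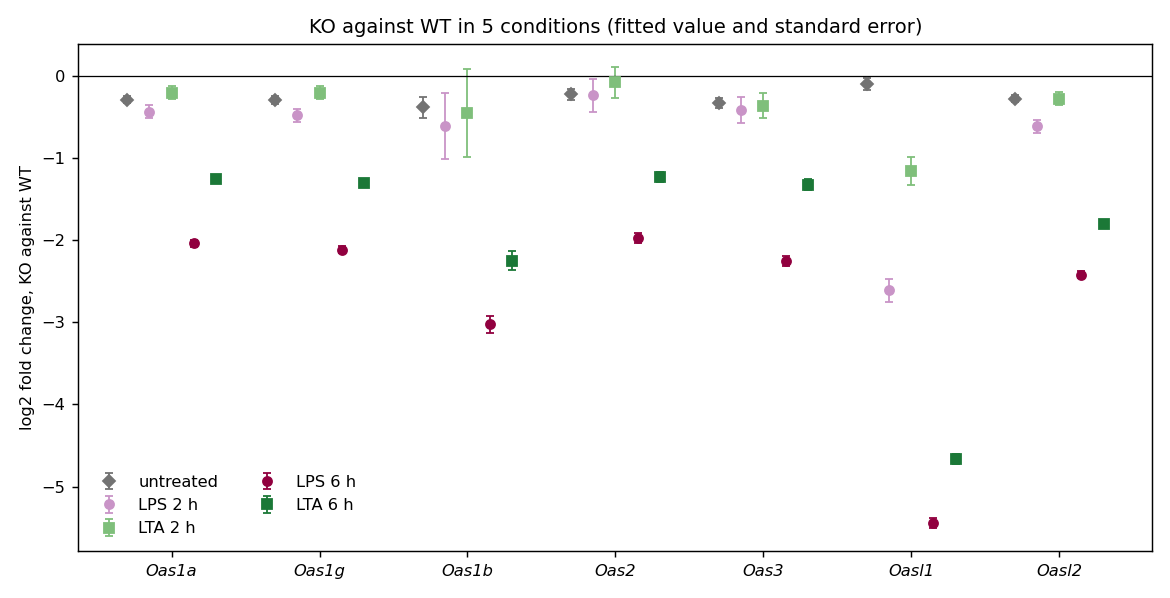
Log2 difference of KO from WT in 5 conditions, fitted value with its standard error, with LPS as circles, LTA as squares, untreated cells as diamonds and paler colours for 2 h. The 6 h points lie lowest for each gene, down to -5.44 for Oasl1 after LPS, and at 2 h Oasl1 alone lies below -1.

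Ordered over the 10 groups, all 7 members were highest in WT LPS 6 h and then in WT LTA 6 h, with no overlap between neighbours. Next came WT LPS 2 h for Oas1a, Oas1g and Oasl1, and for Oas1a its libraries overlapped those of untreated WT cells. For Oas1b, Oas2, Oas3 and Oasl2 untreated WT cells came next, and overlapped no group that followed in the order. At the lower end many neighbours overlapped: for Oas1a the 5 KO groups took the last 5 places, at 82.8 to 91.4 CPM, and each overlapped the next. For Oasl1 the 5 KO groups were lowest too, at 12.4 to 23.0 CPM, and untreated KO cells overlapped untreated WT cells.

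Among other genes of the oligoadenylate pathway, Akap7, an oligoadenylate-degrading enzyme, rose by 1.29 ± 0.16 and Oas1c by 1.34 ± 0.13 on the log2 scale in WT cells given LPS for 6 h, and Abce1 fell by 0.18 ± 0.06. KO against WT after LPS for 6 h was lower for Akap7 (-1.38 ± 0.16) and Oas1c (-1.66 ± 0.14) and higher for Abce1 (0.27 ± 0.06). On library totals the WT values after LPS were 0.59 for Akap7, 0.65 for Oas1c and -0.88 for Abce1, and KO against WT was -0.86, -1.14 and 0.80. The call for Abce1 in WT cells was lost without WT LPS 6 h replicate 3 (-0.13, adjusted p = 0.075). Oas1c after LTA for 6 h in WT cells had a log2 value of 0.09 ± 0.16 (adjusted p = 0.64), where the 7 members rose.

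Of 13 other sensors and effectors of double-stranded RNA, all tested, 9 rose and 3 fell in WT cells given LPS for 6 h, where 36.6% of all genes were higher and 36.1% lower, with a median log2 fold change of 1.91. Ifih1 (MDA5), Ddx58 (RIG-I) and Dhx58 (LGP2), helicases that detect viral RNA, rose by 3.91, 2.55 and 2.44, and Zbp1, a sensor of Z-form nucleic acid, by 2.86. In KO cells 3 of 13 rose and 4 fell, near the shares over all genes (25.7% higher and 26.6% lower). KO against WT after LPS for 6 h had 9 lower and 4 higher, where 30.6% of all genes were lower and 32.7% higher, with Ifih1 at -4.11, Zbp1 at -3.06, Ddx58 at -3.02 and Dhx58 at -2.98.

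In the interferon receptor and ISGF3 list 13 of 14 genes were tested. After LPS for 6 h 12 rose and 1 fell (Irf3) in WT cells, where 36.6% of all genes were higher and 36.1% lower. The median log2 fold change over the list was 1.86. Ifnb1, which encodes interferon beta, rose by 4.91, the feedback inhibitors Socs1 and Usp18 by 5.91 and 3.99, and Irf7, a driver of interferon genes, by 2.49. KO against WT after LPS for 6 h had 12 lower and 1 higher, where 30.6% of all genes were lower and 32.7% higher. Ifnb1 was at -3.99, Socs1 at -3.56, Usp18 at -3.51 and Irf7 at -3.21. In KO cells given LPS for 6 h, 25.7% of all genes were higher and 26.6% lower. There 7 of 13 listed genes were called higher, among them Usp18 and Socs1, and 3 lower, among them Irf7. Ifnb1 is 1 of these 7, but rests on 0, 1 and 2 counts in the untreated KO libraries against 5, 7 and 7 counts after LPS. Without treatment 7 of 13 were lower in KO, as were 6 of the 7 Oas genes, where 7.47% of all genes were called lower.

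The pattern over the 10 group means was compared between genes as the root mean square distance of log2 levels, each gene centred on its own mean. Within the family Oas1a and Oas1g were closest, at 0.13, and their counts cannot be divided with certainty. The next pairs were Oas3 with Oasl2 at 0.24 and Oas1a with Oasl2 at 0.25, and Oasl1 lay at least 1.01 from each other member. Outside the family, the nearest genes were sought among tested genes, leaving out provisional symbols, clone names and unnamed IDs. Among these the closest to Oasl1 were Cmpk2 (0.44), Rsad2 (0.47) and Trim30c (0.47), and those closest to Oas1b included Dhx58 (0.19) and Trim30a (0.27). For Oasl2 they included Etnk1 (0.15) and Zcchc2 (0.16), and for Oas2 they were Mitd1 (0.12), Cmtm6 (0.17) and Znfx1 (0.18). Oas1a was closest to Ep400 (0.12), Xrn1 (0.12) and Trim12a (0.14), Oas1g to Uba7 (0.11), Axl (0.13) and Aim2 (0.16), and Oas3 to Trim34a (0.18), Casp8 (0.21) and Trim12c (0.21). These distances describe 10 group means in 2 library sets and carry no test.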

How the data were processed

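RNA-seq of 30 libraries was analysed from 1 table of expected counts deposited by the authors. The submitters' processing notes name GRCm38 (mm10) and the tools STAR 2.7.11, featureCounts, Subread 2.1.1, fastp 0.24.0 and SAMtools 1.22.1. The sources used here give no annotation release, strand setting or RNA selection. Of the positive values 25.2% were not whole, and all were rounded to counts for testing. Without a known strand setting, reads of overlapping antisense genes cannot be told apart. GENCODE M21 named 26304 IDs and left 6057 unnamed, which stayed in the tests. Groups came from the labels, and the harvest text names 6 h alone. The members and lists were chosen with earlier results of these data known.

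edgeR 4.0.16 (R 4.3.3) was fitted to all 30 libraries with 1 mean per group, TMM factors and a filter of at least 10 counts (15 in total), leaving 15119 genes and 20 residual degrees of freedom. 25 contrasts were tested by the quasi-likelihood F test, two-sided, with Benjamini-Hochberg adjustment per contrast over all genes and a threshold of 0.05. Standard errors were the absolute log2 value divided by the root of F. The fit was tested on simulated counts. Alternatives were relative log expression factors, library totals, no filter, DESeq2 1.42.0, fewer groups in the fit, leaving out each library, a replicate block and summed Oas1 rows. Floors of 3 counts cover counting error only. Named genes outside the family were Ticam2, Ifnb1, Irf7, up to 4 genes per pathway list with the smallest p for KO against WT after LPS for 6 h, and the 3 genes nearest in pattern to each member. Genes named beside counts of 5 or fewer were added after their values were seen. Some genes that this rule names are not reported here.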

Additional observations from a re-analysis of the deposited data

Results flagged for a closer look

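The values below are tested differences between effects in 2 genotypes, ligands or times, each an interaction contrast of edgeR's quasi-likelihood test on the log2 scale with adjusted p under 0.05 over all genes. They share libraries and are given without explanation.

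The response to LPS for 6 h was lower in KO than in WT by -1.75 for Oas1a, -2.64 for Oas1b, -1.82 for Oas1g, -1.75 for Oas2, -1.92 for Oas3, -5.34 for Oasl1 and -2.14 for Oasl2. The response to LTA for 6 h was lower in KO by -0.96 for Oas1a, -1.87 for Oas1b, -1.01 for Oas1g, -1.004 for Oas2, -0.99 for Oas3, -4.56 for Oasl1 and -1.53 for Oasl2. At 2 h the response to LPS was lower in KO by -2.51 for Oasl1 and -0.34 for Oasl2, and the response to LTA by -1.06 for Oasl1.

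The excess of LPS over LTA at 6 h was smaller in KO by -0.78 for Oas1a, -0.77 for Oas1b, -0.81 for Oas1g, -0.74 for Oas2, -0.93 for Oas3, -0.78 for Oasl1 and -0.61 for Oasl2. At 2 h it was smaller by -1.45 for Oasl1, which was not called without KO LTA 2 h replicate 1 (-1.23, adjusted p = 0.053).

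The KO to WT difference with LPS was lower at 6 h than at 2 h by -1.60 for Oas1a, -2.41 for Oas1b, -1.63 for Oas1g, -1.73 for Oas2, -1.83 for Oas3, -2.83 for Oasl1 and -1.80 for Oasl2. With LTA it was lower by -1.05 for Oas1a, -1.80 for Oas1b, -1.10 for Oas1g, -1.15 for Oas2, -0.96 for Oas3, -3.50 for Oasl1 and -1.53 for Oasl2. The value of Oas1b with LTA was not called without KO LTA 2 h replicate 3 (-1.50, adjusted p = 0.094) or on library totals (-1.30, adjusted p = 0.059). Time and library set cannot be told apart in the values of this paragraph.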

How the results depend on the processing

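Under the alternatives, 2633 values were recomputed for the 7 members, the summed Oas1 rows and, in a few contrasts, Oas1c. Of these, 2560 kept direction and side of the threshold, 41 passed it anew, 30 dropped below it and 2 turned sign while called. Sign changes of values called in neither fit were not counted. On library totals alone, Oas3 in WT after LTA for 6 h was -0.26, Oas2 in KO after LTA for 6 h -0.16 and Ifih1 in KO after LPS for 6 h -0.14. Totals also gave 6 members called in KO after LPS for 6 h (3 with TMM), 4 between KO and WT after LTA for 2 h (2 with TMM) and 4 for the genotype difference in the 2 h LPS response (2 with TMM). The medians over all genes shifted with totals to -0.19 and -0.18 in KO after LPS and LTA for 6 h, 0.54 and 0.44 for KO against WT at 6 h, and 0.52 and 0.45 for the genotype difference in the 6 h responses. They moved to 0.56 and 0.46 for KO against WT at 6 h minus 2 h, and to -0.20 for KO after LPS for 2 h. Called genes then split into 2365 higher and 6341 lower in KO after LPS for 6 h (3890 and 4018 with TMM) and 2474 and 6207 after LTA (3887 and 4011). KO against WT at 2 h split into 913 and 1485 with LPS (1377 and 1095) and 836 and 1047 with LTA (1184 and 788). LPS against LTA in WT at 6 h split into 2136 and 3409 (2699 and 2111), and in KO at 2 h into 136 and 62 (172 and 39). The genotype differences in response split into 8452 and 1647 (4082 and 3559) for LPS and 7971 and 1262 (3752 and 3035) for LTA at 6 h, and into 1065 and 1726 (1513 and 1195) and 1003 and 1324 (1364 and 957) at 2 h. The genotype difference in LPS minus LTA at 6 h split into 2304 and 1664 (1382 and 2043), and KO against WT at 6 h minus 2 h into 6802 and 1685 (3328 and 3551) with LPS and 6030 and 1421 (3042 and 3101) with LTA. The causes were not tested. Fits to the groups compared alone or to the 2 h libraries alone called 4 and 5 members between KO and WT after LTA for 2 h. Leaving out 1 library, that count ran from 1 (without WT or KO LTA 2 h replicate 3) to 3, and the count for the genotype difference in LPS minus LTA at 2 h from 0 to 1. Without any single library, all 7 members stayed called in WT after either ligand for 6 h and between KO and WT at 6 h. No pairing by replicate number was seen, though correlations cannot exclude it. The 60 same-number pairs correlated from -0.34 to 0.27 (median 0.02), 6 above 0.1, and 23 were best with their own number. With the number as a replicate block, 1 call was added, Oas2 in KO after LPS for 6 h (-0.15, adjusted p = 0.049), and no other changed. Ordering without length left 4 members in place after LPS for 6 h and 2 untreated. Scaling the profiles left 0 or 1 of the 3 nearest genes for all members but Oas1g. In the 2 h libraries 3 counts are 1.13 to 2.25 CPM, which limits Oas1b most.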

Other observations

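The pathway lists were also counted after LTA for 6 h. In WT cells 10 of 13 double-stranded RNA sensors and effectors rose and 3 fell, where 35.4% of all genes were higher and 35.9% lower, with a median log2 fold change of 1.06, and 12 of 13 interferon receptor and ISGF3 genes rose and none fell, with a median of 1.13. In KO cells 4 sensors were called higher and 6 lower, and 7 interferon pathway genes higher and 3 lower, where 25.7% of all genes were higher and 26.5% lower. Ifnb1 is 1 of these 7, with 0, 1 and 2 counts in untreated KO libraries against 7, 4 and 3 after LTA. KO against WT after LTA for 6 h had 9 sensors lower and 2 higher, and 12 interferon pathway genes lower and 1 higher, where 28.0% of all genes were lower and 30.5% higher.

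Abce1, of the oligoadenylate pathway, was higher in KO cells than in untreated KO cells in all 4 treated groups. Its log2 fold changes were 0.40 ± 0.08 and 0.43 ± 0.08 after LPS and LTA for 2 h and 0.33 ± 0.06 and 0.32 ± 0.06 at 6 h, with adjusted p-values of at most 6.0e-05 by edgeR's quasi-likelihood test. In WT cells it was 0.16 ± 0.06 after LTA for 6 h (adjusted p = 0.012) and not called at 2 h. The 2 h values also compare the library sets. On library totals the value in KO cells after LPS for 6 h was 0.13 (adjusted p = 0.044 by the same test).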
